A study of Arabidopsis thaliana with 24 samples.

Results

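The genes described here encode the DNA replication machinery of Arabidopsis thaliana, from the proteins that mark origins to those that rebuild chromatin behind the fork. They were chosen by locus code from a list of 34 genes. The list holds helicase subunits, licensing factors, the origin recognition complex, the sliding clamp and its loader, and polymerases. It also holds DNA ligase LIG1 and AT5G26680, ribonucleotide reductase, and chromatin assembly and DNA methylation factors. Of the 34, 28 had a value among the 20777 loci of the expression table. MCM6, CDT1B, ORC1A, ORC1B, RFC1 and DPB2 were not analysed here.

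All plants were wild type of ecotype Col-0, grown in vitro on MS medium, and RNA was hybridised to 24 ATH1 arrays, 3 for each of 8 groups. The tissues were seedling shoots (growth stage 1.03) and leaf 3, sampled at 3 ages. Leaf 3 was taken while proliferating (9 days after sowing, near 0.1 mm2), expanding (15 days, 7 mm2) or mature (22 days, 40 mm2), each time from plants on 0 mM (control) or 25 mM mannitol, a sugar alcohol used as a mild osmotic stress. The 3 replicates are separate experiments, samples were pooled from many plants, and n counts arrays.

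Before a cell divides, the origin recognition complex (ORC) binds DNA, and CDC6 and CDT1 load the ring-shaped MCM complex on it. When S phase begins, CDC45 and the GINS complex turn MCM into the active helicase. Polymerases then copy both strands while held by the clamp PCNA, with deoxynucleotides supplied by ribonucleotide reductase. In leaves these genes are known to be active while cells divide and, in cells that have stopped dividing, during endoreduplication, in which DNA is copied without division. Many of them carry sites for E2F transcription factors, which the retinoblastoma-related protein RBR1 holds in check.

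Levels are given as log2 values, so that a difference of 1 is a doubling. A level of a gene is set only against the same gene in other samples, because probes differ in brightness and levels of different genes on an array cannot be ranked. Differences come from 1 limma fit over all 24 arrays, with p-values adjusted over all 20777 loci. Calls were made where the adjusted p fell below 0.05, and "fell", "rose" and "called" are used in that sense. Array medians ran from 5.91 to 6.16 and correlations between replicates from 0.990 to 0.997. Markers of the labelled tissue were set against the array median, a rough guide since probes differ in brightness, which cannot tell the 8 groups apart. The 5 measured photosynthesis markers read 9.81 to 14.2 and lay above it on all 24 arrays. Of 7 shoot meristem markers, 6 lay below it on all 24 arrays, STM, WUS and CLV3 among them, and CLV1 lay above it on all 24. Of 7 root markers, RHD6, COBL9, EXPA7, CASP1 and MYB36 lay below it on all 24, SCR above it on all 24, and SHR below it on 8. In whole organs, fewer cells of a dividing type and less RNA per cell cannot be told apart.

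Some arrays stood apart for the replication genes as a group. Replicate 3 of the seedling control was the highest of its group for 23 of the 28 genes, replicate 3 of the proliferating control for 19 and replicate 3 of proliferating leaf on mannitol for 25. Replicate 2 of the expanding control was the lowest of its group for 21. Differences between single genes on the same array are therefore not independent, and the results that these arrays touch most are also given without them.

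**Figure D1:**
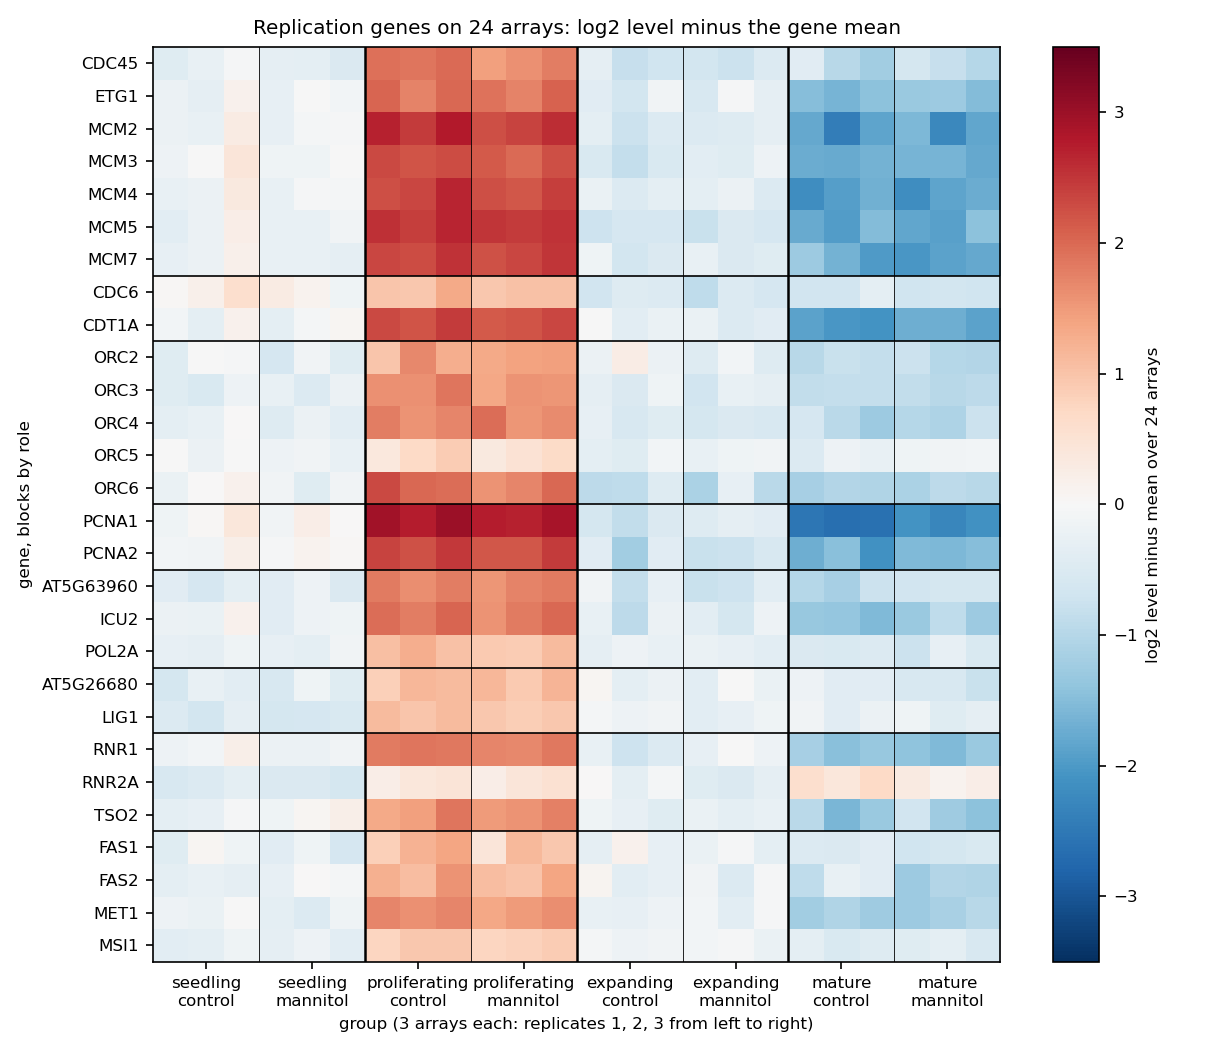
Heat map of 28 replication genes (rows, in blocks by role) on 24 arrays (columns, 3 per group). Colour is the log2 level minus the gene's mean over the 24 arrays. The 6 proliferating leaf arrays are above the mean for every gene, and mature leaf is lowest for most. In control medium the means of LIG1, AT5G26680 and RNR2A are lowest in seedlings, and that of RNR2A is highest in mature leaf.

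All 28 genes fell from proliferating to expanding control leaf. The median log2 change was -2.13, with a range from -3.56 for the clamp gene PCNA1 to -0.50 for RNR2A, a small subunit of ribonucleotide reductase. In that step 31.5% of all loci were called lower. The arrays of the stages did not overlap for any of the 28 genes (no overlap and lower in 31.7% of all loci). On mannitol all 28 fell as well, with a median of -2.06 and a range from -3.16 to -0.69, and there 31.8% of all loci were called lower. From expanding to mature control leaf, 18 of the 28 fell further and 1 rose (background 21.6% lower and 18.8% higher), with a median of -0.69. On mannitol 19 fell and 1 rose (background 21.5% lower and 18.6% higher), with a median of -0.68. The 2 steps share the expanding arrays, so a high or low expanding array moves the steps in opposite directions.

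Over both steps the median fold between proliferating and mature control leaf was 7.09 for the 27 genes that were lower in mature leaf. Of the whole fall, a median of 74.0% had been reached in expanding leaf. This share was over 80% for 10 genes and under 70% for 8. Without replicate 2 of the expanding control the median was 71.2%, with 8 genes over 80% and 11 under 70%. It was 98.5% for CDC6, 98.3% for ORC5, 91.2% for LIG1 and 90.9% for CDC45, and 58.6% for CDT1A, 62.5% for ORC2, 63.7% for MCM4, 64.7% for TSO2 and 64.8% for PCNA1. Some genes thus had nearly their mature level in expanding leaf, while others went on falling. In mature control leaf the mean levels of POL2A (3.58) and ORC3 (3.82) lay below 4.10, the top of the lowest 25% of locus means, where a log2 change can understate a fall.

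**Figure D2:**
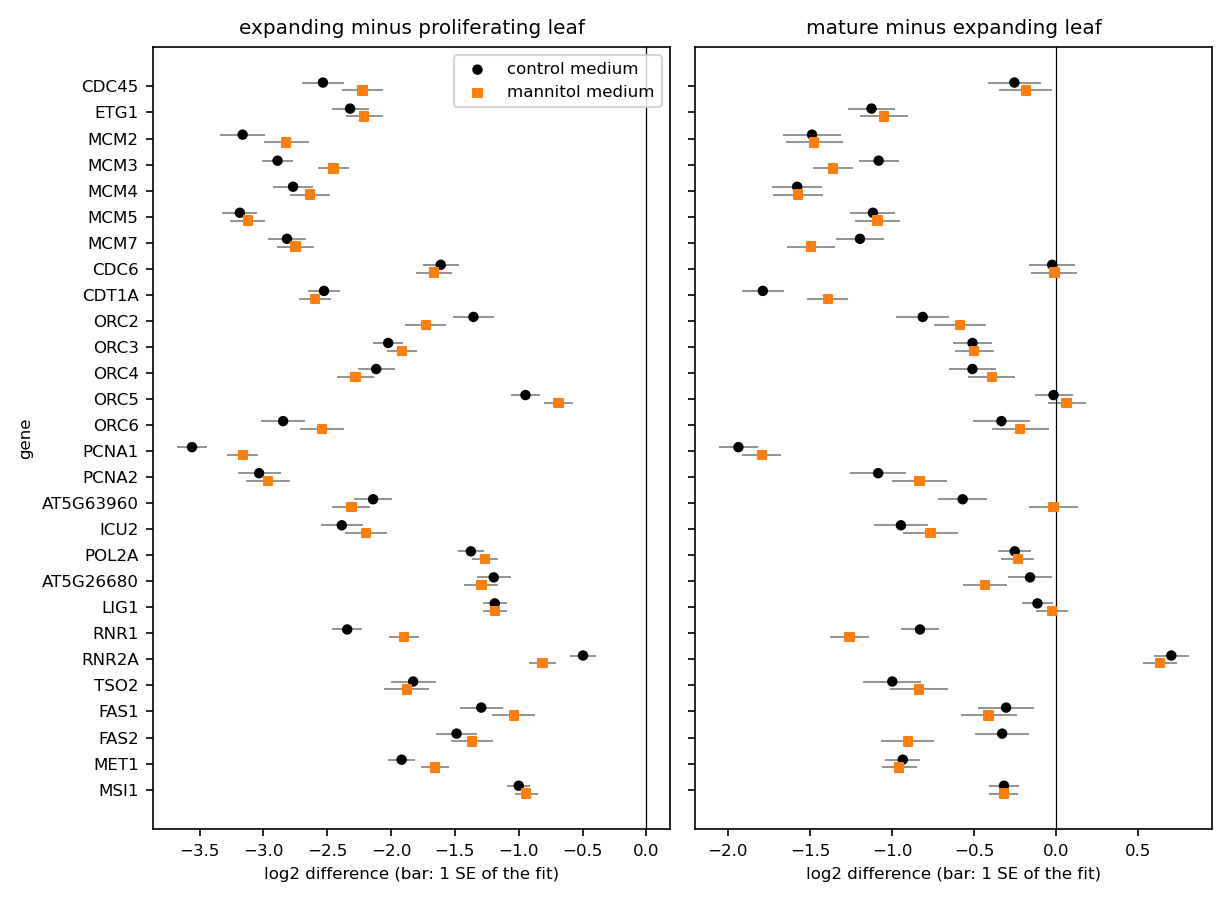
Log2 difference between successive stages for each gene, expanding minus proliferating leaf on the left and mature minus expanding leaf on the right; points are the fitted differences in control (black circles) and mannitol medium (orange squares), bars 1 SE. In the left panel all points lie below 0, and in the right panel RNR2A lies above 0 in both media.

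The helicase genes fell together. MCM2 to MCM5 and MCM7 encode subunits of the MCM ring, CDC45 encodes its activating partner, and ETG1 encodes an MCM-binding protein that acts with the ring. All 7 measured helicase genes fell in the first step (median -2.82), and 6 fell in the second (median -1.13). MCM5 (AT2G07690) had the largest first fall of these: its levels were 9.005, 8.870 and 9.096 in proliferating control leaf, 5.72, 5.85 and 5.85 in expanding leaf, and 4.69, 4.47 and 4.91 in mature leaf. The groups did not overlap at either step, with differences of -3.18 ± 0.137 (SE, adjusted p = 2.72e-15) and -1.12 ± 0.137 (adjusted p = 5.54e-07).

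MCM2 (AT1G44900) had the largest fall of the helicase genes over both steps, 25.1-fold. Its control levels were 9.38, 9.12 and 9.45, then 6.33, 5.92 and 6.21, then 4.88, 4.28 and 4.84. MCM4 fell 20.3-fold, MCM5 19.7-fold, MCM7 16.1-fold and MCM3 15.7-fold over both steps. ETG1 (AT2G40550) had the smallest first fall of this group, from 9.35, 9.06 and 9.33 to 6.91, 6.67 and 7.19 (-2.32 ± 0.145 SE), and it fell again, to 5.83, 5.68 and 5.88 (-1.13).

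CDC45 (AT3G25100) was the helicase gene that did not pass the test at the second step. It went from 8.26, 8.18 and 8.29 to 6.01, 5.51 and 5.61 and then to 5.91, 5.35 and 5.11, so that expanding and mature arrays overlapped. The second difference was -0.26 (adjusted p = 0.238), and -0.48 (adjusted p = 0.0137) without replicate 1 of the mature control, its highest mature array.

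Of the licensing factors CDT1A and CDC6, which work in the same loading of MCM, CDT1A was called at both leaf steps and CDC6 only at the first. The difference between the 2 genes was not tested. CDT1A (AT2G31270) fell at both steps, from 8.83, 8.73 and 8.96 to 6.505, 6.145 and 6.289 and then to 4.66, 4.48 and 4.43, with no overlap. The changes were -2.53 and -1.79 (adjusted p = 3.68e-14 and 1.06e-10), 19.9-fold in all. CDC6 (AT2G29680) fell from 6.19, 6.17 and 6.53 to 4.54, 4.77 and 4.75 (-1.61 ± 0.141 SE) and read 4.55, 4.56 and 4.88 in mature leaf (-0.02, adjusted p = 0.916). Its expanding and mature arrays cover the same range.

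Origin recognition genes were spread more widely. All 5 measured subunits fell in the first step (median -2.02). ORC6 (AT1G26840) had the largest first fall, from 7.84, 7.55 and 7.50 to 4.62, 4.64 and 5.09 (-2.85), and its mature levels of 4.36, 4.51 and 4.48 did not overlap those of expanding leaf but did not pass the test (-0.33, adjusted p = 0.136). ORC5 (AT4G29910) had the smallest, from 7.05, 7.36 and 7.55 to 6.33, 6.23 and 6.56 (-0.95), and read 6.179, 6.491 and 6.401 in mature leaf. It was the gene with the smallest overall fall among the 27, 1.95-fold.

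ORC2 (-0.81), ORC3 (-0.51) and ORC4 (-0.51) fell in the second step in control medium. For ORC4 the call was lost without replicate 3 of the mature control (-0.34, adjusted p = 0.0667). On mannitol the same step gave -0.59, -0.50 and -0.39. There the call of ORC4 (adjusted p = 0.032) was lost under quantile normalization (0.14), under median centring (0.0578) and without replicate 2 or 3 of expanding leaf (0.0909 and 0.0688) or replicate 1 or 2 of mature leaf on mannitol (0.089 and 0.127).

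The clamp genes included the deepest fall of all. PCNA1 (AT1G07370) and PCNA2 (AT2G29570) encode near-identical forms of the ring that keeps polymerases on DNA. PCNA1 went from 11.16, 10.98 and 11.23 to 7.61, 7.36 and 7.72 and to 5.69, 5.59 and 5.61, a fall of 45.1-fold. PCNA2 went from 10.66, 10.54 and 10.78 to 7.90, 7.09 and 7.89 and to 6.59, 6.84 and 6.19, a fall of 17.4-fold. Replicate 2 of expanding PCNA2 was the low array. Groups of either gene did not overlap between stages.

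PCNA1 fell by more than PCNA2 at both steps. Measured within arrays, the log2 difference PCNA1 minus PCNA2 changed by -0.53 from proliferating to expanding and by -0.85 from expanding to mature control leaf, without overlap. Without replicate 2 of the expanding control these were -0.69 and -0.68. An exact permutation test of 3 against 3 arrays cannot go below 0.1, which is the value it gave for each (adjusted p = 0.257 over the 18 pair tests made). The table does not show whether the probes of either gene also bind the other transcript.

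Among polymerase genes, ICU2 (AT5G67100), the catalytic subunit of polymerase alpha that starts each new strand, had the largest first fall. It went from 8.23, 8.09 and 8.32 to 6.04, 5.37 and 6.08 (-2.39) and to 4.97, 4.94 and 4.74 (-0.95), without overlap. POL2A (AT1G08260), the catalytic subunit of polymerase epsilon on the leading strand, had the smallest measured fall. It went from 5.15, 5.37 and 5.12 to 3.78, 3.90 and 3.83 (-1.38) and to 3.58, 3.54 and 3.63 (-0.25, adjusted p = 0.0516). Its expanding and mature arrays all lay below 4.10, so both changes may understate a fall.

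POL2A was called in the second control step under quantile normalization (adjusted p = 0.0297) and with replicate numbers as a block (0.0499). The list holds AT5G63960 among the polymerases by locus code. It fell in control medium at both steps (-2.14 and -0.57), and on mannitol in the first step (-2.31) with -0.02 in the second (adjusted p = 0.944).

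DNA ligase LIG1 (AT1G08130), which joins Okazaki fragments, fell in the first step and was not called in the second. Its control arrays read 8.64, 8.49 and 8.64, then 7.46, 7.34 and 7.41 (-1.19 ± 0.0952 SE), then 7.41, 7.13 and 7.33 (-0.11, adjusted p = 0.38). AT5G26680 went from 6.83, 7.17 and 7.12 to 6.07, 5.67 and 5.80 (-1.20 ± 0.133 SE) and to 5.82, 5.61 and 5.62 (-0.16, adjusted p = 0.382). Expanding and mature arrays overlapped for both genes in control medium.

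On mannitol the second step of AT5G26680 was called, at -0.43 (adjusted p = 0.0114). The call was lost without replicate 2 of expanding leaf on mannitol (adjusted p = 0.0769) or replicate 3 of mature leaf on mannitol (0.0632).

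Ribonucleotide reductase, the enzyme that makes deoxynucleotides, needs a large subunit, RNR1 (AT2G21790), and a small subunit, encoded among others by TSO2 (AT3G27060) and RNR2A (AT3G23580). RNR1 fell from 10.84, 10.90 and 10.86 to 8.76, 8.28 and 8.53 (-2.34) and to 7.84, 7.54 and 7.69 (-0.83). TSO2 fell from 11.70, 11.80 and 12.26 to 10.21, 10.10 and 9.96 (-1.83) and to 9.45, 8.77 and 9.07 (-0.999). Neither gene overlapped between stages.

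RNR2A took another course. Its control arrays read 9.46, 9.63 and 9.68 in proliferating leaf, 9.23, 8.90 and 9.15 in expanding leaf and 9.82, 9.63 and 9.93 in mature leaf. It fell by 0.50 (adjusted p = 0.000241) and then rose by 0.70 (adjusted p = 8.6e-06), and on mannitol it fell by 0.81 and rose by 0.63. It was the 1 gene of 28 that rose in the second step, in either medium, and the 1 gene whose mean was higher in mature than in proliferating control leaf, by 0.20. Within arrays, TSO2 minus RNR2A changed by -1.33 in the first and -1.70 in the second control step, without overlap (exact permutation p = 0.1 each, the smallest possible, adjusted p = 0.257).

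**Figure D3:**
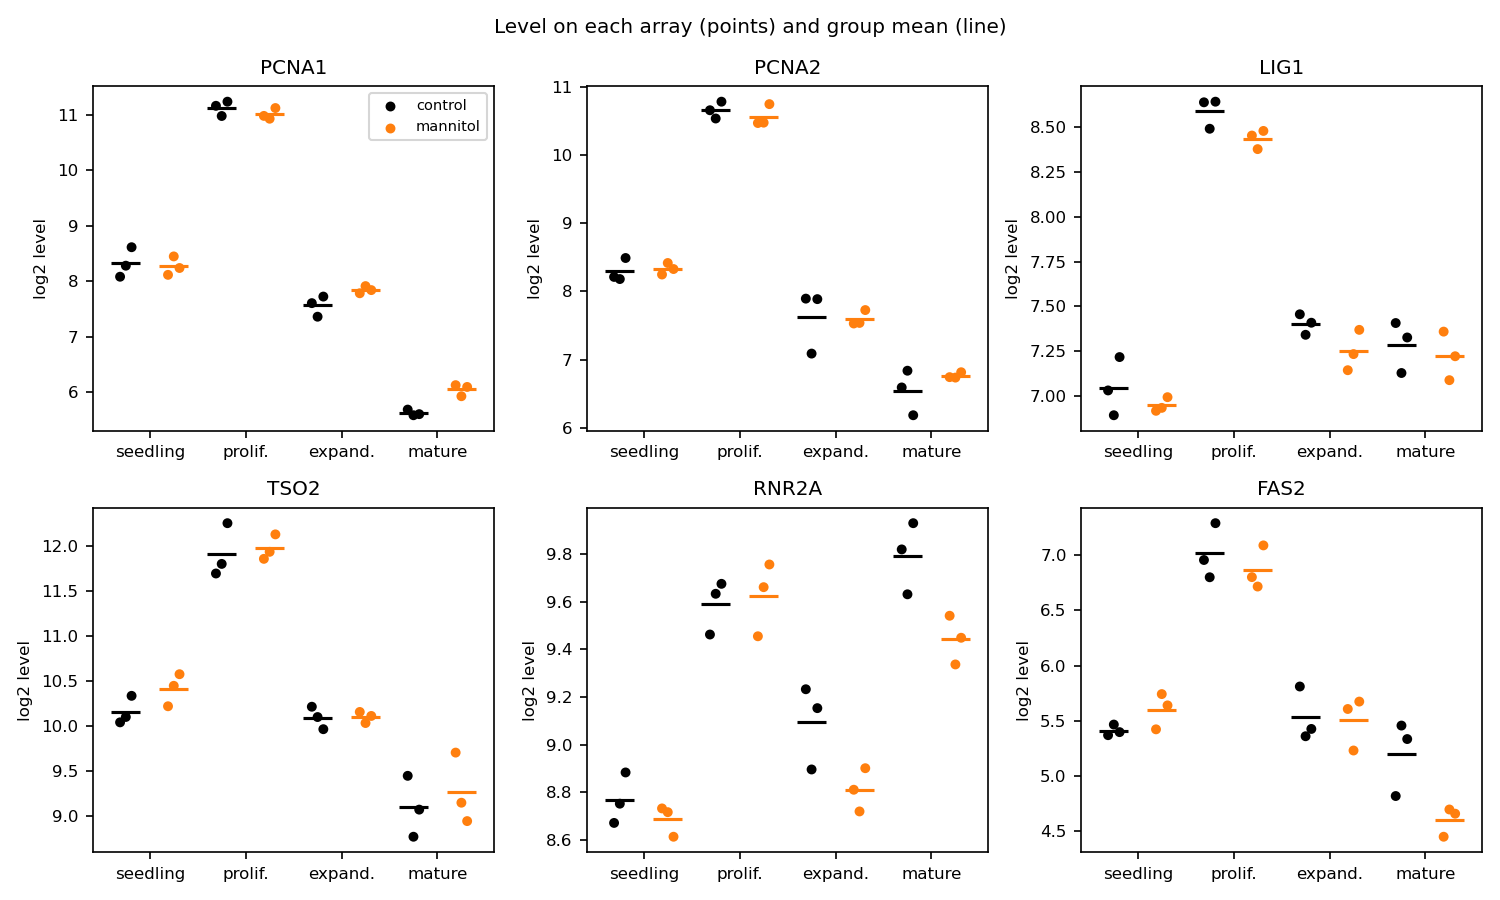
Log2 level of 6 genes on each array (points: black control, orange mannitol) with the group mean as a line, for seedling, proliferating, expanding and mature samples. PCNA1, PCNA2 and TSO2 step down through the leaf stages, LIG1 has overlapping arrays in expanding and mature control leaf, RNR2A is highest in mature control leaf, and FAS2 on mannitol lies below its control arrays in mature leaf. The scales differ between panels and do not start at 0.

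Chromatin factors fell least as a group in the control first step after the pair LIG1 and AT5G26680 (median -1.39). FAS1, FAS2 and MSI1 form chromatin assembly factor 1, which places histones on new DNA, and MET1 copies CG methylation to the new strand. MET1 (AT5G49160) had the largest fall, from 9.72, 9.62 and 9.72 to 7.75, 7.72 and 7.83 (-1.92) and to 6.78, 6.96 and 6.76 (-0.93). MSI1 (AT5G58230), whose product also serves in Polycomb complexes, had the smallest, from 9.08, 9.27 and 9.27 to 8.25, 8.16 and 8.21 (-1.0004) and to 7.98, 7.80 and 7.88 (-0.32). Both fell at both steps without overlap.

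FAS1 and FAS2 fell in the first control step (-1.29 and -1.49) and gave -0.31 and -0.33 in the second, where neither passed (adjusted p = 0.168 and 0.117). Without replicate 2 of the mature control, FAS2 passed in that step (-0.46, adjusted p = 0.0444). On mannitol FAS2 fell by 0.90 in the second step (adjusted p = 8.52e-05), while FAS1 gave -0.41 (adjusted p = 0.0579, and 0.0185 with replicate numbers as a block). Measured within arrays, FAS1 minus FAS2 changed by 0.19 and 0.02 at the control steps (exact permutation p = 0.6 and 1).

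Seedling shoots lay below proliferating leaf for all 28 genes (median -1.95; background 32% of loci lower). POL2A lay below 4.10 in seedlings of both media, so its differences there may be understated. Set against expanding leaf, 8 were higher and 2 lower (background 14.5% and 18.3%). The higher genes were CDC6 (0.80), PCNA1 (0.76), ORC6 (0.73), MCM3 (0.71), PCNA2 (0.67), MCM5 (0.51), RNR1 (0.48) and MCM2 (0.47). Those lower were LIG1 (-0.35) and RNR2A (-0.33). Against mature leaf 21 were higher and 2 lower (background 24% and 27.9%), again LIG1 (-0.24) and RNR2A (-1.03). The order proliferating, seedling, expanding, mature held for the mean levels of 19 of the 28 genes, though for 18 of 28 seedling and expanding leaf did not differ by the test.

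PCNA1 shows the seedling pattern. It read 8.08, 8.28 and 8.61 in control seedlings, above the expanding and below the proliferating arrays, and CDC6 read 5.25, 5.39 and 5.81. The highest value of each came from replicate 3, and mitotic genes were also highest there, with array medians from 6.33 to 7.10. Their part in the result was not tested.

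Without replicate 3 of the seedling control, 6 replication genes were higher and 2 lower than in expanding leaf. MCM2 (adjusted p = 0.243) and MCM5 (0.0588) then lost their call. MCM2 also lost it without replicate 2 (0.186) or 3 (0.0612) of the expanding control, under median centring (0.0502) and quantile normalization (0.0631) and in a fit of the 6 arrays alone (0.0618). The call of RNR2A against expanding leaf was lost without replicate 1 or 2 of the seedling control (0.089 and 0.053), without replicate 1 or 3 of the expanding control (0.0986 and 0.0613) and in the fit of 6 arrays (0.0715). That of LIG1 against mature leaf was lost without replicate 1 or 2 of the seedling control (0.088 and 0.193), replicate 1 or 3 of the mature control (0.162 and 0.102) and in the fit of 6 arrays (0.116).

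Few replication genes passed the test on mannitol. In seedlings limma called 0 of 28 (0 at an unadjusted p under 0.05, where 8.43% of all loci were), with a median log2 difference of -0.09. There 1.45% of all loci were called. In proliferating leaf, where the genes are most active, it called 0 of 28 (background 1.81%; 0 at an unadjusted p under 0.05, background 9.87%), with a median of -0.11. Of the 28 differences in proliferating leaf 23 were below 0, where 58.1% of all loci were. Without replicate 3 of the control 20 were below 0 and the median was -0.03, without replicate 3 on mannitol 25 (median -0.17), and without both 22 (median -0.11). CDC45, ORC3 and LIG1 did not overlap between media there (3 of 28; background 17.1%).

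Those 3 genes lay lower on mannitol. CDC45 read 7.75, 7.90 and 8.12 against 8.26, 8.18 and 8.29 in control (-0.32, 95% interval -0.66 to 0.02), and LIG1 read 8.45, 8.38 and 8.48 against 8.64, 8.49 and 8.64 (-0.15, interval -0.35 to 0.04). ORC3 read 6.02, 6.23 and 6.20 against 6.26, 6.26 and 6.53 (-0.20, interval -0.44 to 0.05). None of the 3 passed the test (adjusted p from 0.55 to 0.664), and all 3 intervals include 0. Same-numbered arrays deviated together in proliferating leaf. Because the arrays of these 3 genes did not overlap, any pairing puts them lower on mannitol in all 3 pairs, which adds no support. For CDC45 the pair differences were -0.51, -0.27 and -0.18. With stage and replicate number as a block, the interval of CDC45 was -0.59 to -0.05, while those of ORC3 and LIG1 still included 0, and none passed (adjusted p = 0.246, 0.432 and 0.434). In that fit the interval of FAS1 (-0.31, -0.52 to -0.10) also lay below 0, with an adjusted p of 0.125. Over the list, 15 of 28 genes were lower on mannitol in all 3 pairs, as were 22.7% of all loci.

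Intervals set the size of difference that these data allow. The 95% interval lay within 0.5 of 0 for 23 of 28 genes in seedlings, 24 in proliferating, 22 in expanding and 18 in mature leaf. It included 0 for 28, 28, 24 and 23 genes. These intervals are those of the fit without a block. Changes smaller than that are not shown to be absent. With stage and replicate number as a block, some intervals no longer included 0. In seedlings these were TSO2 (0.04 to 0.47) and FAS1 (-0.42 to -0.004), and neither passed in limma (adjusted p = 0.288 and 0.418). In proliferating leaf they were CDC45 and FAS1, as given above. In expanding leaf it was ORC2 (-0.53 to -0.05), which did not pass (adjusted p = 0.128). In mature leaf they were CDT1A (0.03 to 0.43) and ICU2 (0.01 to 0.49), and neither passed (adjusted p = 0.15 and 0.179).

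**Figure D4:**
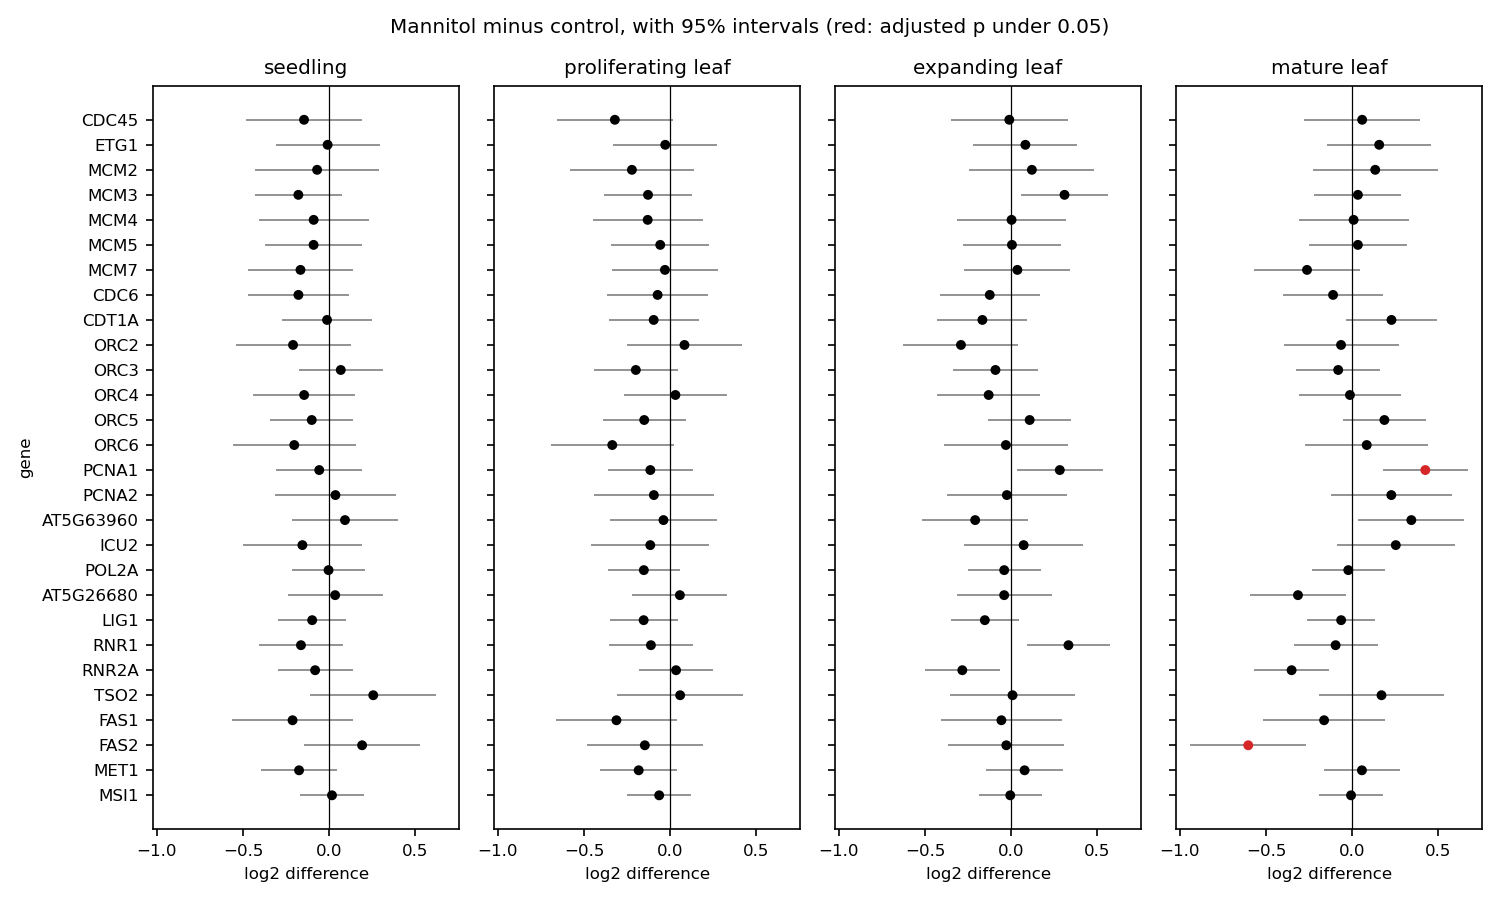
Mannitol minus control for each gene at the 4 stages; points are fitted log2 differences and bars their 95% intervals. Red points mark the called genes, PCNA1 (higher) and FAS2 (lower) in mature leaf, and all other points are black.

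In expanding leaf limma called 0 of 28 as well (background 7.65%). At an unadjusted p under 0.05 there were 4, or 14.3% of the 28 against 18.8% of all loci. The 4 were RNR1 (0.33, adjusted p = 0.0944), MCM3 (0.31, 0.146) and PCNA1 (0.28, 0.186) with higher values on mannitol, and RNR2A (-0.28, 0.114) with lower ones. MCM3 read 6.74, 6.43 and 6.75 in control and 6.90, 6.85 and 7.09 on mannitol, and PCNA1 read 7.61, 7.36 and 7.72 against 7.78, 7.91 and 7.84. These were the 2 genes without overlap (2 of 28; background 20%), and replicate 2 was the low control array of each.

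Among the ribonucleotide reductase genes in expanding leaf, the uncalled differences of RNR1 and RNR2A had opposite signs, and TSO2 gave 0.008. The difference between RNR1 and RNR2A was not tested. RNR1 read 8.76, 8.28 and 8.53 in control and 8.72, 9.01 and 8.83 on mannitol. It was called under quantile normalization (adjusted p = 0.0439) and without replicate 1 of the expanding control (0.0289). RNR2A read 9.23, 8.90 and 9.15 against 8.81, 8.72 and 8.90. It was called with a block of stage and replicate number (adjusted p = 0.0452), a fit chosen after seeing the data, and without replicate 2 of the expanding control (-0.38, 0.0307).

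In mature leaf 2 of 28 were called, PCNA1 higher and FAS2 lower on mannitol (background 4.83%, with 2.99% higher and 1.84% lower). PCNA1 read 5.69, 5.59 and 5.61 in control and 6.13, 5.93 and 6.10 on mannitol (0.42 ± 0.120 SE, adjusted p = 0.0425). FAS2 (AT5G64630) read 4.82, 5.45 and 5.33 in control and 4.45, 4.69 and 4.65 on mannitol (-0.60 ± 0.163 SE, adjusted p = 0.0335). All 3 mannitol arrays of each lay outside the control range. At an unadjusted p under 0.05 there were 5 genes (17.9% of the 28, against 19.3% of all loci), and 9 of 28 did not overlap between media (background 24.6%).

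Both calls were close to the threshold in the reported fit. FAS2 kept its call in 7 of 13 alternatives and PCNA1 in 4 of 13. FAS2 lost it without control replicate 2 (adjusted p = 0.101) or 3 (0.14), without mannitol replicate 1 (0.125), 2 (0.0669) or 3 (0.0759), and in a fit of the 6 mature arrays alone (0.0934). PCNA1 lost it on omission of any single array (0.0597 to 0.134), in the fit of 6 arrays (0.0502), under median centring (0.0573) and under quantile normalization (0.0669). With stage and replicate number as a block, a fit chosen after seeing the data, both passed (adjusted p = 0.00178 for FAS2 and 0.022 for PCNA1). Replicate 3 of mature leaf did not pair clearly between media. The direction was kept in all 13 alternatives for both genes.

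RNR2A read 9.82, 9.63 and 9.93 in mature control leaf and 9.54, 9.34 and 9.45 on mannitol, with no overlap. It narrowly missed the call (-0.35 ± 0.105 SE, adjusted p = 0.0549). It passed with replicate numbers as a block (0.0422), with the block within stages (0.019), under median centring (0.0218), with a trended prior (0.0398) and without control replicate 2 (0.0222).

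AT5G63960 (0.34, adjusted p = 0.199) and AT5G26680 (-0.31, 0.189) were the other 2 with an unadjusted p under 0.05 in mature leaf. AT5G63960 read 4.79, 4.65 and 5.04 in control and 5.15, 5.19 and 5.18 on mannitol. AT5G26680 read 5.82, 5.61 and 5.62 against 5.44, 5.44 and 5.23. Neither overlapped between media.

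Whether the mannitol difference itself depended on leaf age was tested directly. No replication gene passed in limma (0 of 28) for expanding against proliferating, mature against expanding, mature against proliferating or expanding against seedling (background 1.3%, 3.41%, 2.64% and 0.188%). At an unadjusted p under 0.05 there were 4, 4, 2 and 2 of the 28 genes, against 11.5%, 16.4%, 13.2% and 7.54% of all loci. For PCNA1, mature minus proliferating gave 0.54 ± 0.169 (SE, adjusted p = 0.102). For FAS2, mature minus expanding gave -0.57 (adjusted p = 0.197), and 0.0249 with the block within stages. For AT5G63960 it gave 0.55 (adjusted p = 0.169), and 0.0171 without replicate 2 of the expanding control, its lowest array. These contrasts share arrays with each other and with the mannitol effects above.

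A further list of replication genes outside the 28 was read in the same fit. It held 33 measured genes, among them GINS subunits, clamp loader subunits, the single-strand binding protein RPA and nucleotide enzymes. All 33 fell from proliferating to expanding control leaf (median -1.83, background 31.5% of all loci lower). Those with the smallest p were topoisomerase TOPII (AT3G23890, -4.27), the clamp loader subunit RFC4 (AT1G21690, -1.87), dUTPase DUT1 (AT3G46940, -2.76) and the RPA subunit RPA2B (AT3G02920, -1.83). From expanding to mature control leaf 22 fell and 2 rose (median -0.43, background 21.6% lower and 18.8% higher). Those with the smallest p were POLA4 (AT5G41880, primase, -1.05), PSF1 (0.98), DUT1 (-1.15) and AT3G42660 (-1.05).

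PSF1 (AT1G80190), a GINS subunit, rose in the second step, while the helicase genes described above fell or did not pass the test. It read 7.08, 7.23 and 7.01 in proliferating control leaf, 6.05, 6.35 and 6.09 in expanding and 7.09, 7.13 and 7.21 in mature leaf. The mature arrays reached the range of the proliferating ones. On mannitol it read 5.45, 5.88 and 6.02 in expanding leaf (-0.38, adjusted p = 0.0335) and 6.62, 6.68 and 6.68 in mature leaf (-0.48, adjusted p = 0.012), below the controls in both. The expanding call was lost without control replicate 2 (0.141) or mannitol replicate 1 (0.251) and in the fit of 6 arrays (0.294), and the mature call without control replicate 3 (0.0623).

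Mannitol lowered 5 of the 33 further genes in expanding leaf and raised 0. They were EMB2411 (AT1G08840, -0.48), RPA3B (AT4G18590, -0.41), POLD3 (AT1G78650, -0.62), PSF1 (-0.38) and RFC5 (-0.37), the last with the largest p. The background was 3.62% of all loci lower and 4.02% higher. EMB2411, the homologue of the nuclease and helicase DNA2, kept its call in 12 of 13 alternatives. POLD3, a subunit of polymerase delta, read 6.52, 5.97 and 6.32 in control and 5.51, 5.67 and 5.74 on mannitol, and kept its call in 7 of 13. The count was 2 without control replicate 1 or 2, 1 without mannitol replicate 1, 3 without mannitol replicate 3 and 0 in the fit of the 6 arrays.

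In mature leaf 1 of the 33 rose, the RPA subunit RPA1C (AT5G45400, 0.45, adjusted p = 0.0332), and 1 fell, PSF1. The background was 2.99% of all loci higher and 1.84% lower, so these counts do not set the list apart. RPA1C read 3.63, 3.51 and 3.60 in control, below the dim level, and 4.27, 3.93 and 3.91 on mannitol. Its call was lost without any control array (0.0672 to 0.0939) and without mannitol replicate 1 or 2 (0.164 and 0.054). Without control replicate 3 no gene of the list was called, and without control replicate 2 there were 3 falls. In seedlings and proliferating leaf 0 of the 33 were called by limma (background 1.45% and 1.81%). At an unadjusted p under 0.05 there were 2 in each, against 8.43% and 9.87% of all loci.

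E2F and RBR regulators were measured for 8 of 9 listed genes, and DEL1 was not analysed here. All 8 fell in the first control step (median -1.24, background 31.5% of all loci lower). Among them were the activators E2FA (AT2G36010, -1.87) and E2FB (-0.50), the repressor E2FC (AT1G47870, -1.54), RBR1 (AT3G12280, -1.17) and DEL2 (AT5G14960, -1.32). In the second control step 1 of the 8 fell (background 21.6% lower), E2FA (-0.49, adjusted p = 0.00373). E2FB (0.27), E2FC (-0.17) and RBR1 (0.04) did not pass. E2FB (adjusted p = 0.0542) passed under median centring (0.0112), quantile normalization (0.0125) and the replicate block (0.033), and without replicate 1 of the expanding or of the mature control (0.0183 and 0.0269).

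On mannitol 1 of the 8 regulators was called, RBR1 in mature leaf (background 4.83%, with 1.84% lower). It read 8.38, 8.11 and 8.34 in control and 7.78, 7.92 and 7.98 on mannitol (-0.38, adjusted p = 0.0431). The call was lost without any single mature array except control replicate 2 (0.0682 to 0.168) and in the fit of 6 arrays (0.0999). E2FA gave -0.16, -0.22, -0.25 and -0.22 in seedling, proliferating, expanding and mature samples, none past the test, and E2FB and E2FC lay between -0.14 and 0.17.

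Mitotic genes, which mark dividing cells, moved more than the replication genes in the first step. All 12 measured fell (median -3.55, background 31.5% lower), with the B-type cyclin CYCB1;1 at -4.09 and the cytokinesis syntaxin KN at -3.97. In the second control step 7 fell and 1 rose (median -0.57, background 21.6% lower and 18.8% higher). The gene that rose was AUR2 (1.10, adjusted p = 2.52e-05). In seedlings all 12 were above expanding leaf (median 1.32, background 14.5% higher), against 8 of 28 replication genes. The difference between the lists was not tested.

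Mannitol and control expanding leaf differed for the mitotic list, where 3 of 12 rose (background 4.02%), KN (0.48), AUR2 (0.58) and CDKB2;1 (0.55). Of these, AUR2 also rose from expanding to mature control leaf, where KN (-1.85) and CDKB2;1 (-1.57) fell. All 12 mannitol differences were above 0 (median 0.37), where 46.2% of all loci were. The array medians of that list were 4.87 to 5.07 in control and 5.27 to 5.62 on mannitol. Replication genes on the same arrays had medians of 6.19 to 6.33 in control and 6.14 to 6.25 on mannitol. The mitotic count was 1 without replicate 1 or 2 of either medium and 2 without mannitol replicate 3 or in the fit of 6 arrays, and KN was lost on omission of any single array (0.0843 to 0.125).

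Stomatal lineage genes, which mark a cell type that goes on dividing in older leaves, moved in both directions. Of 9, 5 fell and 2 rose in the first control step (median -1.29; background 31.5% lower and 29.1% higher), and 8 fell in the second (median -1.17; background 21.6% lower). Array medians were 7.60 to 7.72, 5.75 to 6.27 and 4.23 to 4.42 in proliferating, expanding and mature control leaf. MUTE was below the array median on all 24 arrays. On mannitol the medians were 7.16 to 7.32, 6.25 to 6.49 and 4.13 to 4.29. The part of these cells in the replication result was not tested.

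**Figure D5:**
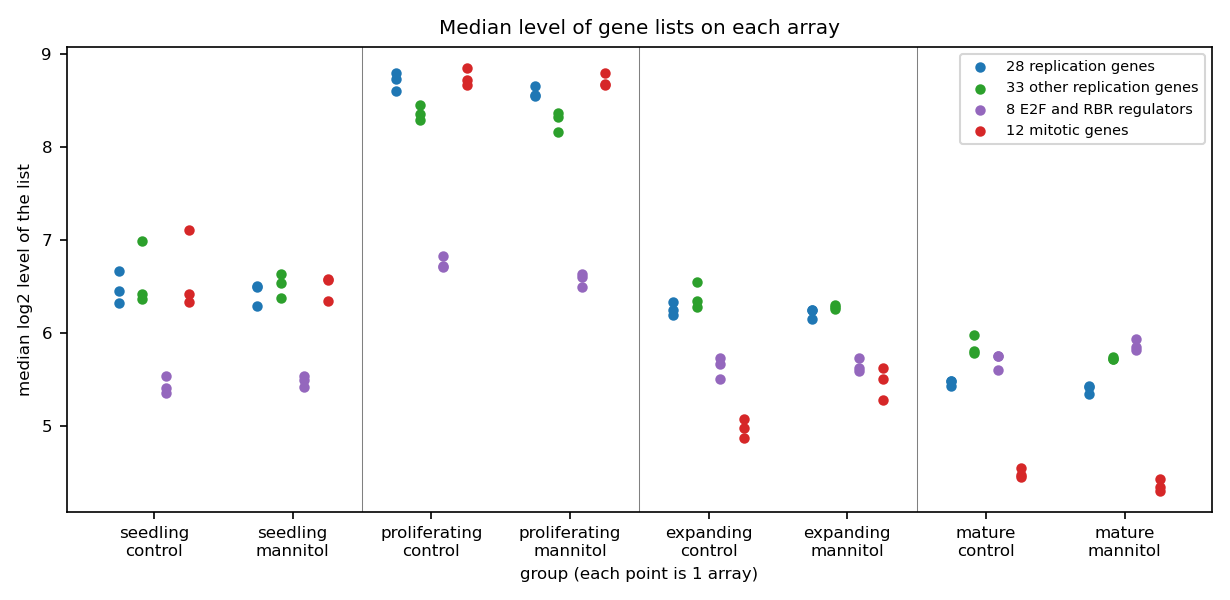
Median log2 level of 4 gene lists on each array (points): 28 replication genes, 33 other replication genes, 8 E2F and RBR regulators and 12 mitotic genes. All lists are highest in proliferating leaf, and in expanding leaf the mitotic medians on mannitol lie above those of control while the replication medians overlap.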

How the data were processed

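Per the submitters' processing notes, the deposited log2 expression levels come from RMA. Its version is not given in the sources used here, nor are the probe grouping and whether all arrays were processed together. The log2 scale was inferred from the range of the values. The table holds 1 value per locus and array, and no normalization was added. Samples were grouped by title and stress field, because the treatment field names mannitol for every sample, controls included. The number of arrays limits the precision.

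In R 4.3.3, limma 3.58.1 (lmFit, eBayes) was fitted to 8 group means over all 24 arrays and 20777 loci, two-sided, with Benjamini-Hochberg adjustment within each contrast (prior SD 0.137, 6.02 prior degrees of freedom). Intervals are 95% intervals of this fit. Symbols come from a gene table of assembly TAIR10.1, and AT5G63960, AT5G26680 and AT3G42660 keep their locus code. Pairs were tested within arrays by exact two-sided permutation; the pairs CDT1A with CDT1B and ORC1A with ORC1B were not run, as CDT1B and both ORC1 genes were not analysed here. No 2 arrays held identical values (0 pairs). Of the contrasts, only mannitol minus control in expanding leaf was also run on simulated data, through the limma fit.

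Members and lists were chosen with earlier results of these data known. Array levels are given for the genes with the largest and smallest change in each role and for genes near or past a mannitol call. Of the other lists, up to 4 called genes per contrast with the smallest p are named, with the E2F genes, RBR1, CYCB1;1 and KN.

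Replicate numbers paired control and mannitol arrays in seedlings (correlation of deviations 0.177 to 0.429), proliferating (0.267 to 0.334) and expanding leaf (0.118 to 0.21), where every pair lay above 0.1. In mature leaf replicate 3 gave 0.0593. Between leaf stages the values were -0.104 to 0.0634. The numbers are those of the titles. Alternatives were replicate blocks, own groups only, centring, quantile normalization, a filter on low values, a trended robust prior and single-array omission.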

Additional observations from a re-analysis of the deposited data

How the results depend on the processing

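Of the gene values of the 4 lists under all alternatives, 16859 stayed on their side of the threshold, 217 lost the call and 81 gained it. A change of sign occurred in 752, in 0 of them for a gene called in either fit. For the 28 replication genes, the first leaf step (28 called in either medium) and the comparison of seedling with proliferating leaf (28) did not depend on any setting except the filter on low values, which leaves out POL2A. With a replicate block shared by all stages, 3 genes were called for mannitol in mature leaf (2 without it). For mature minus expanding leaf, that block gave 20 in control (19 without it) and 21 on mannitol (20 without it). Counts of the other contrasts did not change. Replicate numbers did not pair between leaf stages, so the block within stage, not this shared block, models the pairing of media. The mannitol count in mature leaf was 2 in the reported fit, 0 in a fit of its own groups, 1 under quantile normalization and 0 to 1 with single arrays left out. In expanding leaf it was 0, and 1 under quantile normalization (RNR1), 1 with the replicate block within stage (RNR2A) and 0 to 1 with single arrays left out. The difference of mannitol effects between mature and expanding leaf went from 0 to 1 with the block within stage (FAS2), and lay at 0 to 1 with single arrays left out. The cause was not tested. Median centring shifted the median of all loci by 0.10 and 0.13 in the first step (control and mannitol) and by -0.13 for seedling minus mature. It moved the share of higher calls among all loci from 61.9% to 43.4% (mannitol, mature), 46.5% to 58.4% (mature minus expanding, control), 51.1% to 62.4% (expanding minus proliferating, mannitol) and 46.2% to 30.1% (seedling minus mature). With 3 arrays a group, the 95% interval of a mannitol difference reached 0.18 to 0.37 on either side. ORC3 was dim in mature leaf and POL2A in seedlings and in expanding and mature leaf.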
